A study of Mus musculus with 14 samples.

Results

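The 40 genes described here encode the proteins that activate fatty acids and oxidise them: 6 acyl-CoA synthetases, 5 proteins of the carnitine shuttle, 8 acyl-CoA dehydrogenases, 7 further mitochondrial enzymes of the oxidation spiral, 4 auxiliary enzymes for unsaturated chains, 3 members of the electron transfer flavoprotein chain, 3 peroxisomal enzymes, malonyl-CoA decarboxylase and 3 transcriptional regulators. They were chosen by gene symbol, each matched to its Ensembl ID. All 40 were found among the 15119 genes listed for the series, and all 40 were among the 15102 genes tested. Of the 40, 39 had at least 10 reads in every library, and the exception was Ppara.

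RNA came from GFP-positive cells of the dentate gyrus of adult B6.Cg-Tg(Nes-EGFP)1Yamm mice, in which regulatory elements of Nestin drive GFP, so that GFP reports Nestin activity and not a cell type by itself. A sorter split these cells by dihydroethidium, a dye that fluoresces after reaction with superoxide and other oxidants, into classes of rising reactive oxygen species (ROS): ROS+ (5 libraries), ROS++ (5 libraries) and ROS+++ (4 libraries). All classes shared the strain, the GFP gate, the enzymatic dissociation and standard housing, and no treatment was given. The comparisons address how transcript levels differ between precursor classes of unequal ROS content, which is the subject named in the title of the series.

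Over the listed genes, the ROS+ libraries held 20832009 to 25313902 reads, the ROS++ libraries 18325361 to 23454022 and the ROS+++ libraries 12704227 to 20998589. Levels are CPM, reads scaled to a common total for each library, and 3 reads, the upper limit for a gene with 0 reads, equal 0.119 to 0.236 CPM by library. This limit covers counting error only, since amplified reads carried no molecular identifiers. Class means are given ± SD (n = 5, 5 and 4 libraries). Each difference is a log2(CPM + 1) difference ± SE from a limma model over all 14 libraries, and a gene was called at an adjusted p under 0.05 over all genes tested. The labels do not name separate animals for the replicates, so p-values reflect just the spread among these libraries, and that spread may be technical.

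A fatty acid is first joined to coenzyme A by an acyl-CoA synthetase, which can send it either to lipid synthesis or to oxidation. Carnitine palmitoyltransferases and a carrier then pass long chains into the mitochondrial matrix, a step that malonyl-CoA inhibits, and dehydrogenases, hydratases and thiolases shorten the chain there while the electron transfer flavoprotein hands electrons to the respiratory chain. Peroxisomes oxidise very long and branched chains. In the adult dentate gyrus, fatty acid oxidation is known as a pathway of quiescent neural stem cells, and in brain at large it is more active in glia than in neurons.

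The classes also differed in markers of cell types, and these values belong beside every result on the 40 genes. Transcripts of 18 mural cell markers (pericyte and smooth muscle) in the table, of 19 listed, summed to 253 to 800 CPM in ROS+, 9399 to 27354 CPM in ROS++ and 61475 to 71207 CPM in ROS+++. All 18 were higher in ROS++ than in ROS+, and all 18 were higher in ROS+++ than in ROS+. For 23 of 24 microglia and macrophage markers the sums were 31.6 to 49.4 CPM in ROS+, 1406 to 3742 CPM in ROS++ and 1095 to 4348 CPM in ROS+++, and for 22 of 22 radial glia-like stem cell markers they were 1471 to 2255 CPM in ROS+, 7925 to 11073 CPM in ROS++ and 8599 to 12038 CPM in ROS+++. The 18 mature astrocyte markers, 1 of which is the synthetase gene Acsbg1, summed to 861 to 1336 CPM in ROS+, 2752 to 3769 CPM in ROS++ and 2316 to 4401 CPM in ROS+++. Neuronal commitment markers (24 of 24) ran the other way, with 16426 to 22346 CPM in ROS+, 2624 to 4663 CPM in ROS++ and 116 to 635 CPM in ROS+++. Oligodendrocyte precursor markers (12 of 12) summed to 3384 to 4879 CPM in ROS+, 3177 to 6325 CPM in ROS++ and 586 to 1059 CPM in ROS+++, with 11 of the 12 lower in ROS+++ than in each other class, and 14 of 14 markers of myelinating oligodendrocytes summed to 2097 to 5661 CPM in ROS+, 2246 to 11863 CPM in ROS++ and 749 to 1470 CPM in ROS+++. Mature neuron markers (13 of 16) summed to 1281 to 1512 CPM in ROS+, 448 to 690 CPM in ROS++ and 108 to 242 CPM in ROS+++, endothelial markers (17 of 18) to 192 to 431 CPM in ROS+, 272 to 676 CPM in ROS++ and 1465 to 1751 CPM in ROS+++ and leptomeningeal fibroblast markers (12 of 12) to 967 to 1485 CPM in ROS+, 1412 to 2138 CPM in ROS++ and 1333 to 1866 CPM in ROS+++. Sums can hide genes that differ otherwise. In ROS+++ against ROS+, 7 endothelial markers were higher and 1 lower, and 9 did not pass. Of the fibroblast markers, 9 were higher and 1 lower. Of the myelinating oligodendrocyte markers, 5 were higher and 5 lower, though their sum was lower in ROS+++. Of the 22 stem cell markers, 18 were higher and 2 lower, and of the 18 astrocyte markers 15 were higher and 2 lower. Of all genes tested, 19.2% were higher and 40.0% lower there. In ROS+++ against ROS++, 5 stem cell markers were higher and 7 lower, and 1 astrocyte marker was higher and 5 lower (all genes 9.89% and 29.2%). With relative log expression factors in place of library totals, these were 5 and 4, and 3 and 2 (all genes 18.7% and 17.1%). Cell cycle genes (25 of 25) summed to 854 to 1442 CPM in ROS+, 1701 to 2667 CPM in ROS++ and 387 to 592 CPM in ROS+++, and all 25 were lower in ROS+++ than in ROS++. Of the mitochondrially encoded genes, 7 of 13 listed were in the table and summed to 10759 to 12286 CPM in ROS+, 15696 to 17802 CPM in ROS++ and 9165 to 13539 CPM in ROS+++. The 22 dissociation stress and immediate early genes summed to 815 to 1160 CPM in ROS+, 1907 to 4367 CPM in ROS++ and 12830 to 17828 CPM in ROS+++. No gene of these lists in the table was without reads in a whole class, the part of these shifts in the results on fatty acid genes was not tested, and in such bulk libraries a class with fewer cells of a type and a class with less RNA per cell cannot be told apart.

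**Figure D1:**
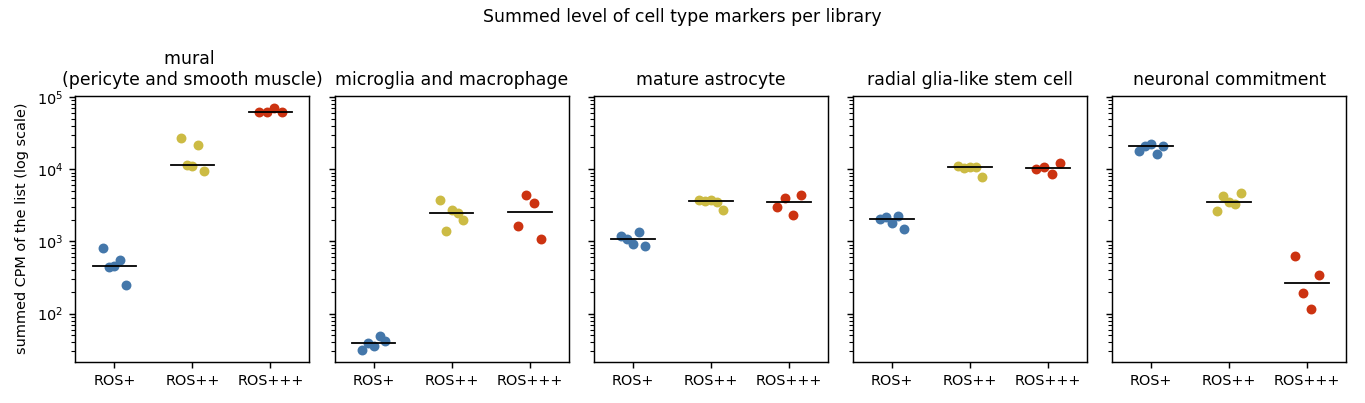
Summed CPM of 5 marker lists (vertical axis, log scale) in each library of the ROS+, ROS++ and ROS+++ classes, with the class median as a line. Mural markers increase from class to class and neuronal commitment markers decrease from class to class, without overlap between classes, while the macrophage, astrocyte and stem cell sums of ROS++ and ROS+++ overlap.

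More fatty acid genes were higher than lower in both upper ROS classes. In ROS++ against ROS+, 15 of the 40 were higher and 0 were lower by limma, where 16.4% of all genes tested were higher and 13.2% were lower; 1 member was lower at an unadjusted p under 0.05, and limma-voom also called 1 lower, in both cases Cpt1c. The median difference of the 40 was 0.49, against -0.03 over all genes. Between ROS+++ and ROS+, 18 were higher and 5 lower, where 19.2% of all genes were higher and 40.0% lower, and the median difference of the 40 was 0.53 against -0.44. Between ROS+++ and ROS++, 7 were higher and 4 lower, where 9.89% of all genes were higher and 29.2% lower, with medians of -0.04 and -0.34.

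Over all genes the ROS+++ libraries lay lower with library totals, and 4 of the 5 members called lower in ROS+++ than in ROS+ (Acad9, Hadha, Hsd17b4 and Slc25a20) lost the call under other scalings. With relative log expression factors in place of library totals, the median of all genes moved to -0.04 in ROS+++ against ROS+, and 23 members were then higher and 1 lower, where 26.5% of all genes were higher and 25.9% lower. For ROS+++ against ROS++ the same factors put the median of all genes at 0.03, with 13 members higher and 2 lower, where 18.7% of all genes were higher and 17.1% lower. For ROS++ against ROS+ the counts were 15 and 0 with either scaling, where with these factors 16.5% of all genes were higher and 12.3% lower.

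Single libraries were also compared without a model. Without overlap between libraries, 14 members were higher and 0 lower in ROS++ than in ROS+, where 12.1% and 10.9% of all genes were so. For ROS+++ against ROS+ these were 13 and 4 members, where 16.8% and 33.2% of all genes were so. For ROS+++ against ROS++ they were 6 and 3 members, where 7.48% and 19.5% were so. An F-test for any difference among the classes passed for 22 of the 40, where 61.5% of all genes passed, so that the share of these genes with a difference of some kind was close to that of all genes. Class means of these 22 took 4 orders. In 11 genes they increased along ROS+, ROS++ and ROS+++, and in 2 they decreased along it. ROS++ had the top mean in the other 9, with ROS+ at the bottom in 6 and ROS+++ at the bottom in 3.

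**Figure D2:**
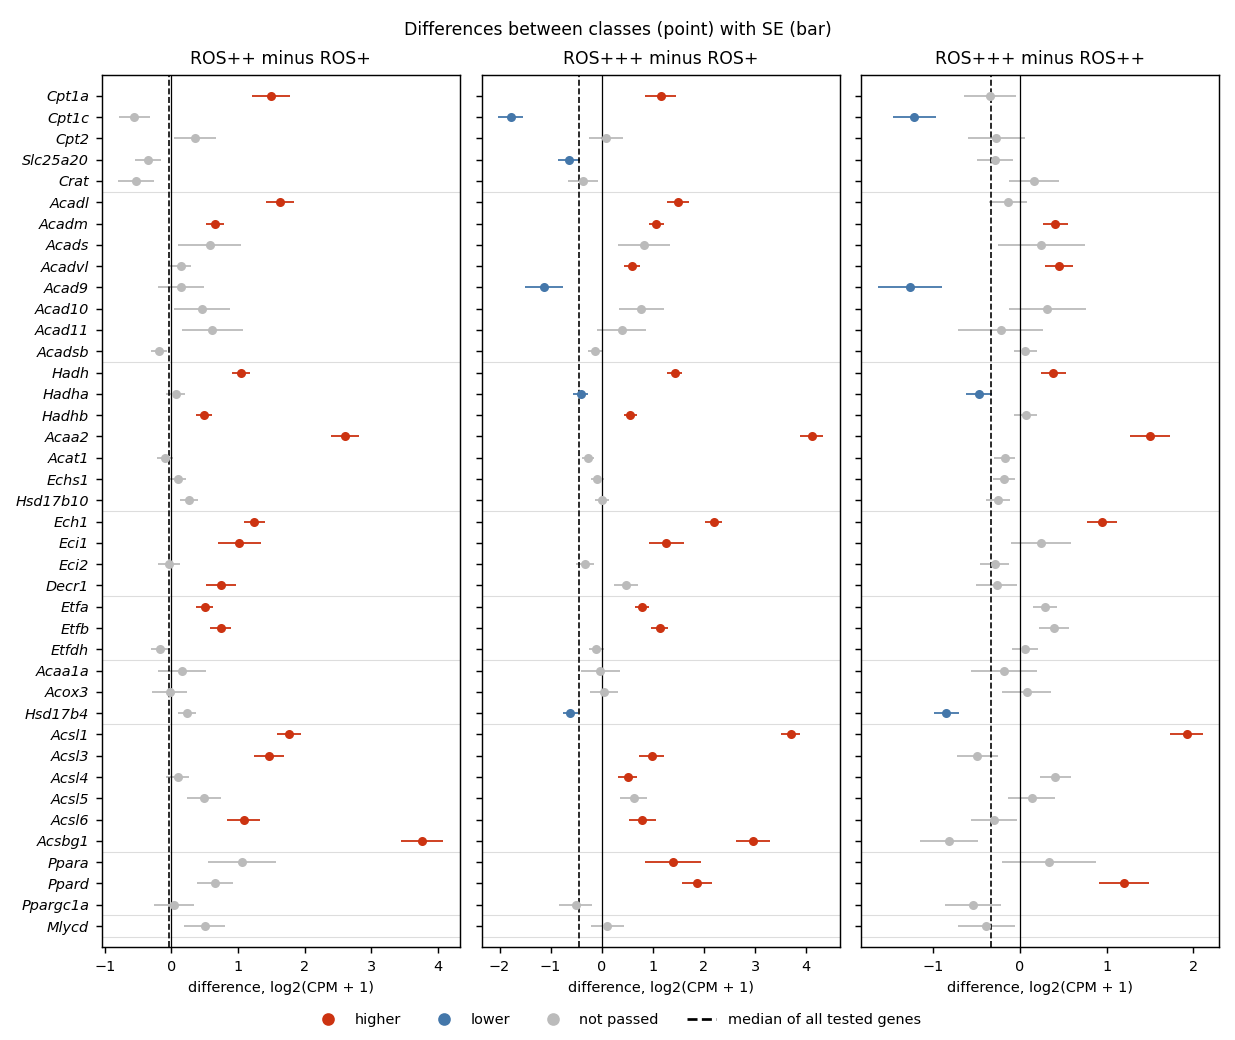
Difference between classes on the log2(CPM + 1) scale (horizontal axis) with its SE for each of the 40 genes, grouped by role, in the 3 comparisons; red marks genes called higher, blue genes called lower, grey genes that did not pass, and the dashed line the median of all genes tested. In ROS++ against ROS+ the 15 called genes all lie to the right, and in ROS+++ against ROS+ the dashed line sits at -0.44, left of all genes called higher.

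Promoter windows were searched because many members were higher together and because the factors Ppara and Ppard, which bind as dimers with retinoid X receptors to pairs of the half-site AGGTCA, are among the 40. RefSeq windows (GRCm38.p6, 250 bases before to 50 after the gene start) were at hand for 34 members and 27025 genes in all, and both strands were searched. The full pair, AGGTCA repeated in the same direction with 1 base of any kind between the copies, was in 0 of the 34 and in 0.0481% of all genes. With base 4 of each copy left free, it was in 0 of the 34 and in 0.451%. The estrogen-related receptor site TCAAGGTCA, which contains the half-site, was in 1 member, Acsl6, and in 0.466% of genes. The palindromic site of the nuclear respiratory factor NRF1 was in 3 of the 34, or 8.82% (Acad10, Etfdh and Ppara), and in 1.07% of genes. The half-site AGGTCA alone was in 6 members, or 17.6%, against 18.1% of all genes. These matches describe letters in a window and are not evidence of binding. Pairs this rare over all genes would seldom be met in 34 windows, so their absence says nothing on binding.

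Stretches of 60 bases that hold the half-site are shown for 5 of the 6 members, among them both Cpt1 genes, which differed in opposite directions in ROS+++ against ROS+, with the half-site in capitals (as TGACCT where it lies on the other strand) and each written 5′ to 3′ on the strand of the gene. The sequences are from RefSeq, build GRCm38.p6.
Cpt1a, chr19:3323180-3323239, plus strand: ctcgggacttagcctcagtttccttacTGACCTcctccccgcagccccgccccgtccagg
Cpt1c, chr7:44974965-44975024, minus strand: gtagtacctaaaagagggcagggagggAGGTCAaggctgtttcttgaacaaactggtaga
Acadm, chr3:153944834-153944893, minus strand: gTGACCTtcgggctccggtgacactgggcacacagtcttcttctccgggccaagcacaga
Acadvl, chr11:70015483-70015542, minus strand: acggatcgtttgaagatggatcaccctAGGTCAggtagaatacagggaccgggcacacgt
Acsl6, chr11:54303608-54303667, plus strand: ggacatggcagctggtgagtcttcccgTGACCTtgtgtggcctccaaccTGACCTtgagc
The half-site of the Cpt1a stretch begins 94 bases before the RefSeq start and lies inside the longer GENCODE span of that gene, which opens at 3322334, while the other 4 lie before the GENCODE start too. In Acsl6 the stretch holds 2 half-sites, the second of which is part of the TCAAGGTCA match.

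Of the 6 synthetases, which activate fatty acids, 4 were higher in ROS++ than in ROS+, 5 were higher in ROS+++ than in ROS+ and 1 was higher in ROS+++ than in ROS++, with none lower. Of all genes, 16.4%, 19.2% and 9.89% were higher and 13.2%, 40.0% and 29.2% lower in these comparisons. These shares belong beside the counts of each role below. With relative log expression factors, 4, 6 and 2 synthetases were higher and none lower, beside 16.5%, 26.5% and 18.7% of all genes higher. Acsl1 (ENSMUSG00000018796, chr8:46471037-46536051, plus strand), a long-chain acyl-CoA synthetase of the endoplasmic reticulum and outer mitochondrial membrane, had 23.8, 18.8, 17.97, 18.6 and 19.8 CPM in ROS+ libraries. Acsl1 stood at 92.7, 45.0, 64.6, 89.0 and 68.3 CPM in the ROS++ libraries, and at 258, 268, 247 and 297 CPM in the ROS+++ libraries. The 3 classes did not overlap, and each class lay above the one before it. Acsl1 was higher in ROS++ than in ROS+ by 1.77 ± 0.18 (adjusted p = 6.69e-07). Its excess of ROS+++ over ROS+ was 3.69 ± 0.19 (adjusted p = 4.59e-11), and that of ROS+++ over ROS++ was 1.92 ± 0.19 (adjusted p = 7.38e-07), calls that held in all 25 alternatives run for each difference (other scalings, pseudocount, filters, model settings and each library left out).

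Acsbg1 (ENSMUSG00000032281, chr9:54604877-54661870, minus strand), the bubblegum synthetase of brain, known from astrocytes, had 10.7, 8.21, 14.0, 14.4 and 5.96 CPM in ROS+ libraries. Acsbg1 stood at 196, 127, 185, 125 and 139 CPM in the ROS++ libraries, and at 66.8, 107, 41.5 and 179 CPM in the ROS+++ libraries. All ROS++ and ROS+++ libraries lay above all ROS+ libraries, and the ROS+++ libraries spread over a range that overlapped ROS++. Its difference was 3.77 ± 0.32 (adjusted p = 8.07e-08) for ROS++ minus ROS+ and 2.95 ± 0.34 (adjusted p = 7.72e-07) for ROS+++ minus ROS+. ROS+++ minus ROS++ was -0.82 ± 0.34 (adjusted p = 0.0621) and did not pass, though it did when ROS+++ replicate 4 was left out (adjusted p = 0.00691) or limma-voom was used (adjusted p = 0.0147). The order of the ROS+++ libraries in Acsbg1, lowest in replicate 3 and highest in replicate 4, was also that of their astrocyte sums, 2316 CPM in replicate 3 and 4401 CPM in replicate 4, to which Acsbg1 itself contributes. Acsl3 and Acsl6 had the same order of ROS+++ libraries, and no link with the sums was tested.

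Acsl3 (ENSMUSG00000032883, chr1:78657825-78707743, plus strand), a synthetase of lipid droplets and the endoplasmic reticulum, had 52.0, 34.1, 49.8, 50.01 and 41.1 CPM in ROS+ libraries. Acsl3 stood at 137, 129, 183, 130.4 and 74.6 CPM in the ROS++ libraries, and at 79.3, 108, 59.4 and 124 CPM in the ROS+++ libraries. Both upper classes lay above ROS+ in every library, and they overlapped each other. Acsl3 was higher in ROS++ than in ROS+ by 1.47 ± 0.23 (adjusted p = 9.01e-05). In Acsl3, ROS+++ was higher than ROS+ by 0.98 ± 0.24 (adjusted p = 0.00214), while ROS+++ minus ROS++, at -0.49 ± 0.24 (adjusted p = 0.117), did not pass with all libraries and passed without ROS++ replicate 5 (adjusted p = 0.0202). Acsl6, a synthetase of brain known for docosahexaenoate, had means of 42.8 ± 7.78 (ROS+), 93.3 ± 24.2 (ROS++) and 78.9 ± 29.7 CPM (ROS+++). Acsl6 was higher in ROS++ than in ROS+ by 1.09 ± 0.25 (adjusted p = 0.00274). Acsl6 was also called higher in ROS+++ than in ROS+, by 0.79 ± 0.26 (adjusted p = 0.0155), but not once ROS+++ replicate 2 (adjusted p = 0.0592) or replicate 4 (adjusted p = 0.0636) was left out.

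Acsl4, which prefers arachidonate, had means of 69.8 ± 16.9 (ROS+), 73.3 ± 8.38 (ROS++) and 98.1 ± 15.3 CPM (ROS+++). It was called in ROS+++ against ROS+, at 0.51 ± 0.18 (adjusted p = 0.024). That call ended without ROS+ replicate 3 or 5 or without ROS+++ replicate 2 or 3, each left out alone (highest adjusted p = 0.0816). The F-test for any difference among the classes did not pass for Acsl4 (adjusted p = 0.0524). In Acsl4, ROS+++ minus ROS++ was 0.41 ± 0.18 (adjusted p = 0.086), which passed under the replicate block (adjusted p = 0.0331) and with each other scaling (with relative log expression factors 0.82, adjusted p = 0.00337). Acsl5, a synthetase found at mitochondria, had means of 23.3 ± 9.70 (ROS+), 31.6 ± 6.13 (ROS++) and 34.7 ± 6.51 CPM (ROS+++) and passed in no comparison with library totals. In Acsl5, ROS+++ minus ROS+ was 0.62 ± 0.27 (adjusted p = 0.0532) and passed in 6 alternatives, among them relative log expression factors (1.05, adjusted p = 0.00274) and the fits without ROS+ replicate 4 (adjusted p = 0.0106) or replicate 5 (adjusted p = 0.0479). Its ROS++ minus ROS+ difference passed when ROS+ replicate 4 was left out (adjusted p = 0.0414).

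The mix of synthetase transcripts differed by class. Expressed per kb of exon and as a share of the 6 within each library, a measure on which scaling between libraries has no effect, Acsbg1 held 7.89 ± 2.49% in ROS+, 39.1 ± 4.78% in ROS++ and 23.9 ± 9.49% in ROS+++ (mean ± SD). Acsl1 held 5.10 ± 0.568% in ROS+, 6.33 ± 1.65% in ROS++ and 24.4 ± 3.57% in ROS+++, and Acsl4 held 34.6 ± 7.56% in ROS+, 12.6 ± 2.02% in ROS++ and 17.9 ± 6.33% in ROS+++. Acsl3 held 27.95 ± 3.51% in ROS+, 27.1 ± 5.19% in ROS++ and 19.5 ± 2.26% in ROS+++, and the shares of Acsl5 and Acsl6 lay between 3.87 and 18.6% in all libraries. Shares of Acsl1 in ROS+++ (20.6 to 28.4%) lay above all those in ROS++ (4.37 to 8.07%) and in ROS+ (4.17 to 5.61%), and shares of Acsbg1 in ROS++ (32.9 to 44.5%) lay above all in ROS+ (4.90 to 11.3%). These shares are descriptions and were not tested. Exon length is the union of all annotated exons of a gene, at 10483 bases for Acsl1 and 3604 for Acsbg1. The size of a share thus depends on the annotation. In CPM, the ROS+++ means were 268 for Acsl1 and 98.5 for Acsbg1.

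**Figure D3:**
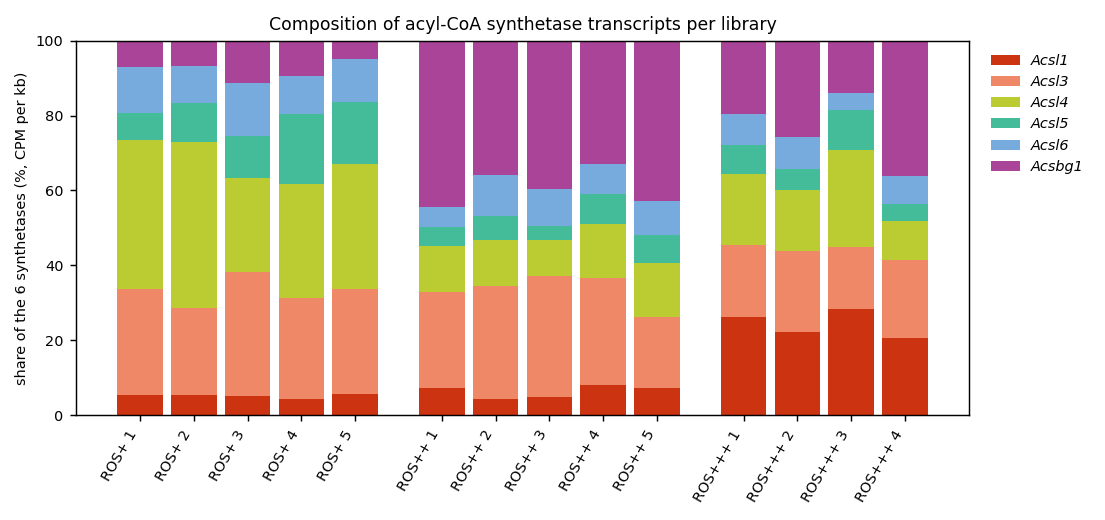
Share of each of 6 acyl-CoA synthetase transcripts in their sum (vertical axis, percent of CPM per kb of exon) in each of the 14 libraries. Acsl4 and Acsl3 fill most of the ROS+ bars, Acsbg1 is the largest part of the ROS++ bars, and Acsl1 is visibly thicker in the 4 ROS+++ bars, at 20.6 to 28.4%.

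In the carnitine shuttle, the 2 isoforms of the first transferase had opposite calls in ROS+++ against ROS+, with Cpt1a higher and Cpt1c lower. Cpt1a (ENSMUSG00000024900, chr19:3322334-3385733, plus strand), the malonyl-CoA sensitive transferase of the outer mitochondrial membrane that admits long chains to oxidation, had 19.2, 29.0, 12.8, 24.2 and 18.01 CPM in ROS+ libraries. Cpt1a stood at 47.4, 60.5, 51.3, 54.8 and 81.5 CPM in the ROS++ libraries, and at 80.5, 35.3, 58.4 and 25.6 CPM in the ROS+++ libraries. ROS++ libraries lay above all ROS+ libraries, and ROS+++ libraries overlapped both other classes. Cpt1a was higher in ROS++ than in ROS+ by 1.496 ± 0.28 (adjusted p = 0.00061). In Cpt1a, ROS+++ was higher than ROS+ by 1.15 ± 0.30 (adjusted p = 0.00328); ROS+++ minus ROS++ was -0.34 ± 0.30 (adjusted p = 0.389) and did not pass. Cpt1c (ENSMUSG00000007783, chr7:44959372-44974851, minus strand), an isoform of neurons that sits in the endoplasmic reticulum and has little transferase activity, had 139, 154, 179.8, 134 and 175 CPM in ROS+ libraries. Cpt1c stood at 72.1, 119, 76.7, 99.2 and 193 CPM in the ROS++ libraries, and at 51.3, 48.2, 28.5 and 54.7 CPM in the ROS+++ libraries. ROS+++ libraries lay below all others, and the ROS++ class was drawn up by replicate 5, which was above every ROS+ library. Cpt1c was lower in ROS+++ than in ROS+, with a difference of -1.78 ± 0.25 (adjusted p = 8.1e-06) and lower in ROS+++ than in ROS++, with a difference of -1.22 ± 0.25 (adjusted p = 0.000784), in all 25 alternatives, while ROS++ minus ROS+ was -0.56 ± 0.23 (adjusted p = 0.0807) and passed when ROS++ replicate 5 was left out (-0.78, adjusted p = 0.0062) or limma-voom was used (adjusted p = 0.0415).

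Within a library, Cpt1a per kb was 0.0524 to 0.139 (ROS+), 0.310 to 0.490 (ROS++) and 0.343 to 1.505 (ROS+++) of Cpt1c per kb. The ratios of ROS+ lay below those of both other classes, and those of ROS++ and ROS+++ overlapped. In the ROS+++ libraries the ratio was 1.15, 0.536, 1.505 and 0.343 for replicates 1 to 4, beside neuronal commitment sums of 635, 195, 116 and 338 CPM, and the part of these sums in the ratio was not tested. Of the other 3 shuttle genes, 1 was called in a comparison. Cpt2, the transferase of the inner membrane, had means of 16.2 ± 4.92 (ROS+), 21.7 ± 8.53 (ROS++) and 17.4 ± 5.90 CPM (ROS+++) and passed in no comparison. Slc25a20, the carnitine-acylcarnitine carrier, had means of 65.6 ± 10.2 (ROS+), 52.4 ± 14.1 (ROS++) and 41.5 ± 4.93 CPM (ROS+++). It was lower in ROS+++ than in ROS+, with a difference of -0.64 ± 0.21 (adjusted p = 0.0137) with library totals, a call that ended with each other scaling (with relative log expression factors -0.21, adjusted p = 0.447). Crat, which handles short acyl groups, had means of 37.2 ± 9.16 (ROS+), 26.1 ± 9.40 (ROS++) and 29.0 ± 8.80 CPM (ROS+++) and passed in no comparison.

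Of the 8 acyl-CoA dehydrogenases, which open each round of oxidation, 2 were higher in ROS++ than in ROS+. In ROS+++, 3 were higher and 1 lower than in ROS+, and 2 were higher and 1 lower than in ROS++. Of all genes, 16.4% were higher in ROS++ than in ROS+. In ROS+++, 19.2% of all genes were higher and 40.0% lower than in ROS+, and 9.89% and 29.2% than in ROS++. With relative log expression factors, the dehydrogenases gave 2 higher and 0 lower, 4 and 0, and 3 and 0 in these comparisons. Acadl (ENSMUSG00000026003, chr1:66830839-66863277, minus strand), the long-chain enzyme, had 16.9, 16.0, 17.1, 15.3 and 12.9 CPM in ROS+ libraries. Acadl stood at 46.2, 56.5, 70.1, 56.7 and 30.8 CPM in the ROS++ libraries, and at 43.9, 48.3, 44.1 and 45.9 CPM in the ROS+++ libraries. ROS++ and ROS+++ libraries all lay above ROS+ libraries and overlapped each other, with the ROS+++ values packed within 43.9 to 48.3 CPM. Acadl was higher in ROS++ than in ROS+ by 1.63 ± 0.21 (adjusted p = 1.07e-05). In Acadl, ROS+++ was higher than ROS+ by 1.49 ± 0.22 (adjusted p = 1.74e-05), while ROS+++ minus ROS++ was -0.14 ± 0.22 (adjusted p = 0.643) and did not pass. Acadm (ENSMUSG00000062908, chr3:153922357-153944632, minus strand), the medium-chain enzyme, had 111, 119.6, 87.1, 88.3 and 98.3 CPM in ROS+ libraries. Acadm stood at 130.5, 186, 152, 188 and 144 CPM in the ROS++ libraries, and at 219, 189, 241 and 197 CPM in the ROS+++ libraries. The classes did not overlap, in the order of ROS content. Acadm was higher in ROS++ than in ROS+ by 0.66 ± 0.13 (adjusted p = 0.00107), and higher in ROS+++ than in ROS+ by 1.06 ± 0.14 (adjusted p = 4.89e-06). ROS+++ minus ROS++ was 0.41 ± 0.14 (adjusted p = 0.0301), a call that ended in the fit of those 2 classes alone (adjusted p = 0.0514) and without ROS++ replicate 1, 3 or 5 or ROS+++ replicate 1 or 3, each left out alone (highest adjusted p = 0.1).

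Acadvl, the very-long-chain enzyme, had means of 72.0 ± 10.3 (ROS+), 79.0 ± 8.24 (ROS++) and 109 ± 20.7 CPM (ROS+++). It was higher in ROS+++ than in ROS+ by 0.59 ± 0.16 (adjusted p = 0.00455) and higher in ROS+++ than in ROS++ by 0.45 ± 0.16 (adjusted p = 0.0338). The second call ended in the fit of 2 classes (adjusted p = 0.0634) and without ROS++ replicate 2, 3 or 4 or ROS+++ replicate 2, 3 or 4, each left out alone (highest adjusted p = 0.104). Of its exon bases, 42.9% overlap Dvl2 on the opposite strand, and the libraries carry no strand, so reads of the 2 genes cannot be told apart there. Acad9, known chiefly as an assembly factor of respiratory complex I, was the 1 dehydrogenase called lower, with 14.4 ± 6.26 (ROS+), 14.99 ± 2.63 (ROS++) and 6.03 ± 2.84 CPM (ROS+++). Its difference was -1.13 ± 0.37 (adjusted p = 0.0142) for ROS+++ minus ROS+, which ended with all 3 other scalings (highest adjusted p = 0.1) and without ROS+++ replicate 3 (adjusted p = 0.0606), and -1.27 ± 0.37 (adjusted p = 0.0109) for ROS+++ minus ROS++, which ended with relative log expression factors (adjusted p = 0.0632). Acads, the short-chain enzyme, had means of 3.88 ± 2.80 (ROS+), 5.97 ± 3.49 (ROS++) and 7.12 ± 3.71 CPM (ROS+++), Acad10 3.298 ± 1.14 (ROS+), 5.55 ± 3.14 (ROS++) and 6.48 ± 2.83 CPM (ROS+++) and Acad11 11.8 ± 6.74 (ROS+), 17.7 ± 7.999 (ROS++) and 13.5 ± 3.13 CPM (ROS+++), all low and none called with library totals. Acad10 did not overlap between ROS+++ and ROS+ libraries, and its difference of 0.78 ± 0.44 (adjusted p = 0.142) passed with TMM (1.09, adjusted p = 0.0477) and relative log expression factors (1.14, adjusted p = 0.0385). Acadsb, which acts on branched short chains, had means of 177 ± 19.5 (ROS+), 156 ± 22.9 (ROS++) and 162 ± 20.3 CPM (ROS+++) and was not called with library totals. Its ROS+++ minus ROS++ difference passed with TMM (0.39, adjusted p = 0.0413) and relative log expression factors (0.47, adjusted p = 0.0151).

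Of the 7 genes for the next steps of the spiral, 3 were higher in ROS++ than in ROS+, and 3 were higher and 1 lower in ROS+++ than in ROS+. Of all genes, 16.4% were higher in the first comparison, and 19.2% were higher and 40.0% lower in the second. With relative log expression factors, 3 of the 7 were higher in the first, and 5 were higher and 0 lower in the second. Acaa2 (ENSMUSG00000036880, chr18:74779197-74806208, plus strand), the mitochondrial thiolase that releases acetyl-CoA, had 10.3, 15.8, 19.6, 11.6 and 17.2 CPM in ROS+ libraries. Acaa2 stood at 141, 72.0, 82.3, 112 and 76.2 CPM in the ROS++ libraries, and at 355, 225, 256 and 243 CPM in the ROS+++ libraries. No classes overlapped, and each step up in ROS content was a step up in Acaa2. It was higher in ROS++ than in ROS+ by 2.61 ± 0.21 (adjusted p = 6.04e-08). Its excess of ROS+++ over ROS+ was 4.10 ± 0.23 (adjusted p = 1.07e-10), and that of ROS+++ over ROS++ was 1.497 ± 0.23 (adjusted p = 5.72e-05), in all 25 alternatives. Acat1, the thiolase of ketone body and isoleucine breakdown, had means of 369 ± 35.2 (ROS+), 345 ± 38.7 (ROS++) and 307 ± 48.8 CPM (ROS+++). Its ROS+++ minus ROS+ difference of -0.27 ± 0.12 (adjusted p = 0.0618) did not pass with all libraries. It passed under the replicate block (-0.26, adjusted p = 0.0347) and when ROS++ replicate 3 (adjusted p = 0.0492), ROS+++ replicate 1 (adjusted p = 0.0466) or ROS+++ replicate 3 (adjusted p = 0.0349) was left out. With the other scalings its sign turned and it did not pass. It was 0.10 with TMM (adjusted p = 0.553), 0.17 with relative log expression factors (adjusted p = 0.344) and 0.02 with upper-quartile scaling (adjusted p = 0.904). Per kb, Acaa2 was 0.0692 to 0.141 (ROS+), 0.470 to 0.929 (ROS++) and 1.81 to 2.62 (ROS+++) of Acat1 within a library, with no overlap between classes.

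Hadh (ENSMUSG00000027984, chr3:131233419-131272101, minus strand), the hydroxyacyl-CoA dehydrogenase for medium and short chains, had 64.9, 72.1, 70.02, 70.9 and 78.5 CPM in ROS+ libraries. Hadh stood at 137, 128, 156, 179 and 142 CPM in the ROS++ libraries, and at 154, 226, 175 and 225 CPM in the ROS+++ libraries. Both upper classes lay above all ROS+ libraries, and ROS+++ replicates 1 and 3 fell within the range of ROS++. Hadh was higher in ROS++ than in ROS+ by 1.04 ± 0.13 (adjusted p = 1.1e-05). In Hadh, ROS+++ was higher than ROS+ by 1.42 ± 0.14 (adjusted p = 1.54e-07). ROS+++ minus ROS++ was 0.38 ± 0.14 (adjusted p = 0.0402), a call that ended in the fit of 2 classes (adjusted p = 0.0824), with the replicate block (adjusted p = 0.0543) and without ROS++ replicate 1, 2 or 5 or ROS+++ replicate 2 or 4, each left out alone (highest adjusted p = 0.135).

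Hadha and Hadhb encode the partner subunits of the mitochondrial trifunctional protein and lie head to head on chromosome 5 (chr5:30118304-30155162, minus strand, and chr5:30155248-30184593, plus strand). Hadhb, the thiolase subunit, had means of 126 ± 13.9 (ROS+), 178 ± 23.6 (ROS++) and 186 ± 21.3 CPM (ROS+++). It was higher in ROS++ than in ROS+ by 0.49 ± 0.12 (adjusted p = 0.00603). In Hadhb, ROS+++ was higher than ROS+ by 0.56 ± 0.13 (adjusted p = 0.00153), and ROS+++ minus ROS++, at 0.07 ± 0.13 (adjusted p = 0.715), passed just with TMM (0.40, adjusted p = 0.0387) and relative log expression factors (0.48, adjusted p = 0.0156). Hadha, the hydratase and dehydrogenase subunit, had means of 145 ± 8.40 (ROS+), 153 ± 25.8 (ROS++) and 109.8 ± 18.7 CPM (ROS+++). With library totals Hadha was lower in ROS+++ than in ROS+, with a difference of -0.41 ± 0.15 (adjusted p = 0.0221) and lower in ROS+++ than in ROS++, with a difference of -0.47 ± 0.15 (adjusted p = 0.0154); both calls ended with each other scaling, and the first turned to 0.03 (adjusted p = 0.902) with relative log expression factors. Both also ended without ROS+++ replicate 2 (adjusted p = 0.0811 against ROS+ and 0.0593 against ROS++), and the first without ROS+++ replicate 4 (adjusted p = 0.0687). The ratio of Hadhb to Hadha, per kb and free of scaling, was 0.9 to 1.31 (ROS+), 1.43 to 1.65 (ROS++) and 2.00 to 2.55 (ROS+++). Its values did not overlap between any classes, and the difference of the ratio was not tested. Echs1, the enoyl-CoA hydratase for short chains, had means of 217 ± 15.6 (ROS+), 235 ± 41.7 (ROS++) and 205 ± 21.7 CPM (ROS+++), and Hsd17b10, a dehydrogenase of isoleucine breakdown that also serves in mitochondrial tRNA processing, had means of 121 ± 6.41 (ROS+), 147 ± 24.0 (ROS++) and 123 ± 20.6 CPM (ROS+++). Neither was called with library totals, and in ROS+++ against ROS+ both passed with relative log expression factors, Echs1 at 0.36 (adjusted p = 0.0269) and Hsd17b10 at 0.44 (adjusted p = 0.0114), whereas Echs1 was at -0.08 with library totals.

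**Figure D4:**
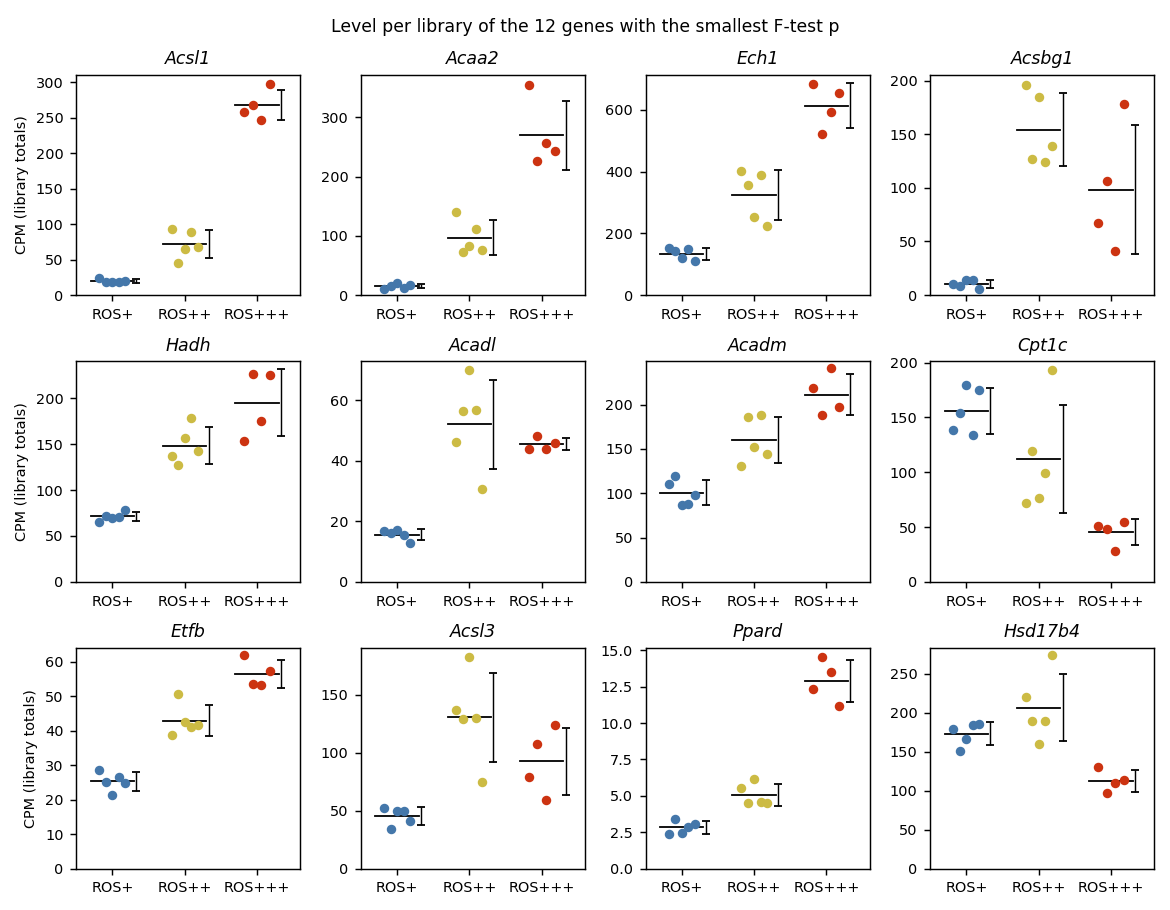
CPM per library (points) in ROS+, ROS++ and ROS+++ for the 12 genes with the smallest F-test p among the 40, with the class mean as a line and ± 1 SD as a bar; each panel has its own vertical axis starting at 0. Acsl1, Acaa2 and Acadm step up from class to class without overlap between classes, Acadl, Acsl3 and Acsbg1 are high in both upper classes, and Cpt1c and Hsd17b4 are lowest in ROS+++.

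Unsaturated chains need auxiliary isomerases and a reductase, and 3 of these 4 genes were higher in ROS++ than in ROS+, where 16.4% of all genes were higher. That count was also 3 with relative log expression factors, where 16.5% of all genes were higher. Ech1 (ENSMUSG00000053898, chr7:28825217-28832247, plus strand), a dienoyl-CoA isomerase of mitochondria and peroxisomes, had 152, 143, 119, 148 and 109 CPM in ROS+ libraries. Ech1 stood at 401, 358, 254, 389 and 222 CPM in the ROS++ libraries, and at 685, 520.2, 594 and 653 CPM in the ROS+++ libraries. The classes did not overlap and followed the order of ROS content. Ech1 was higher in ROS++ than in ROS+ by 1.24 ± 0.16 (adjusted p = 9.94e-06). Its excess of ROS+++ over ROS+ was 2.19 ± 0.17 (adjusted p = 5.6e-09), and that of ROS+++ over ROS++ was 0.95 ± 0.17 (adjusted p = 0.000246), in all 25 alternatives. Eci1, the mitochondrial enoyl-CoA isomerase, had means of 16.2 ± 6.13 (ROS+), 34.6 ± 13.2 (ROS++) and 40.5 ± 14.7 CPM (ROS+++). It was higher in ROS++ than in ROS+ by 1.02 ± 0.32 (adjusted p = 0.0235). That call was lost when ROS+ replicate 2, 3 or 4 or ROS++ replicate 3 was left out (highest adjusted p = 0.0698). Eci1 was also higher in ROS+++ than in ROS+ by 1.26 ± 0.34 (adjusted p = 0.00427). Decr1, the dienoyl-CoA reductase, had means of 46.0 ± 8.89 (ROS+), 77.9 ± 14.4 (ROS++) and 67.3 ± 26.4 CPM (ROS+++). Decr1 was higher in ROS++ than in ROS+ by 0.75 ± 0.22 (adjusted p = 0.0161). For Decr1, ROS+++ minus ROS+ was 0.48 ± 0.23 (adjusted p = 0.0892) and not called with library totals. It was called there with TMM, upper-quartile or relative log expression factors (the last 0.91, adjusted p = 0.00247) and without ROS+++ replicate 2 (0.69, adjusted p = 0.0169). Eci2, a related isomerase of peroxisomes and mitochondria, had means of 155 ± 12.2 (ROS+), 154 ± 36.2 (ROS++) and 124 ± 23.0 CPM (ROS+++). Its differences of -0.33 ± 0.17 (adjusted p = 0.105) for ROS+++ minus ROS+ and -0.29 ± 0.17 (adjusted p = 0.187) for ROS+++ minus ROS++ did not pass with all libraries. Lower Eci2 in ROS+++ than in ROS+ passed under the replicate block (adjusted p = 0.0268), in the fit of 2 classes (adjusted p = 0.0443) and when ROS++ replicate 1 (adjusted p = 0.0484) or ROS+++ replicate 1 (adjusted p = 0.0406) was left out. Lower Eci2 in ROS+++ than in ROS++ passed when ROS++ replicate 1 was left out (adjusted p = 0.0236). With TMM or relative log expression factors the sign of Eci2 turned in both comparisons, and neither difference passed. Against ROS+, Eci2 was then at 0.05 with TMM and 0.11 with relative log expression factors (adjusted p = 0.597). With upper-quartile scaling it was at -0.04 there and did not pass. Against ROS++, it was at 0.04 with TMM and 0.12 with relative log expression factors.

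Electrons from the dehydrogenases pass through the flavoprotein of Etfa and Etfb to the membrane enzyme Etfdh. Etfb (ENSMUSG00000004610, chr7:43444083-43457800, plus strand), the small subunit, had 28.7, 25.2, 21.3, 26.4 and 24.8 CPM in ROS+ libraries. Etfb stood at 38.7, 50.7, 42.4, 41.1 and 41.7 CPM in the ROS++ libraries, and at 61.8, 53.4, 53.2 and 57.3 CPM in the ROS+++ libraries. The classes did not overlap and lay in the order of ROS content. Etfb was higher in ROS++ than in ROS+ by 0.74 ± 0.16 (adjusted p = 0.00176). In Etfb, ROS+++ was higher than ROS+ by 1.13 ± 0.17 (adjusted p = 1.82e-05). ROS+++ minus ROS++ was 0.39 ± 0.17 (adjusted p = 0.0761), which did not pass with library totals and passed in limma-voom and with each other scaling (with relative log expression factors 0.80, adjusted p = 0.00102). For 53.0% of its exon bases Etfb overlaps Gm45233 on the same strand, so that reads could have been divided or dropped there. Etfa, the large subunit, had means of 126 ± 22.5 (ROS+), 177 ± 19.2 (ROS++) and 218 ± 27.6 CPM (ROS+++). It was higher in ROS++ than in ROS+ by 0.50 ± 0.13 (adjusted p = 0.00751). In Etfa, ROS+++ was higher than ROS+ by 0.79 ± 0.14 (adjusted p = 9.97e-05). For Etfa, ROS+++ minus ROS++ was 0.29 ± 0.14 (adjusted p = 0.106), which passed under the replicate block (adjusted p = 0.0439) and with each other scaling (with relative log expression factors 0.71, adjusted p = 0.00115). Etfdh had means of 113 ± 16.5 (ROS+), 101.2 ± 16.1 (ROS++) and 105 ± 11.1 CPM (ROS+++) and was not called with library totals, while its ROS+++ minus ROS++ difference passed with TMM (0.39, adjusted p = 0.0491) and relative log expression factors (0.47, adjusted p = 0.0193). Etfdh per kb was 0.580 to 0.812 (ROS+), 0.324 to 0.446 (ROS++) and 0.246 to 0.325 (ROS+++) of Etfb within a library, and ROS+ ratios lay above all ratios of ROS++ and ROS+++, whose ranges overlapped between 0.324 and 0.325.

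**Figure D5:**
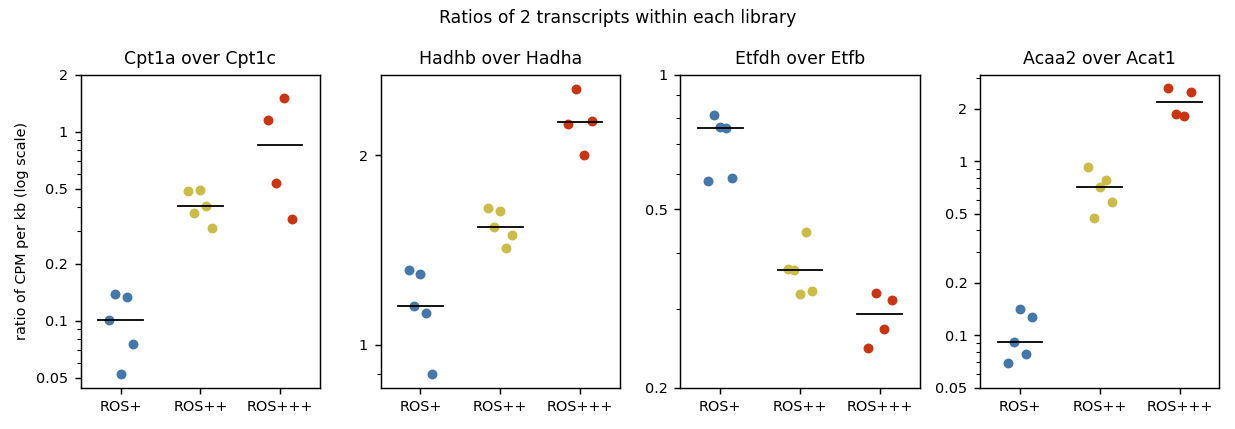
Ratio of the CPM per kb of 2 transcripts within each library (vertical axes, log scale) for ROS+, ROS++ and ROS+++, with the class median as a line. Hadhb over Hadha and Acaa2 over Acat1 increase without overlap between any classes, Cpt1a over Cpt1c is lowest in ROS+, and Etfdh over Etfb is highest in ROS+.

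Of the 3 peroxisomal genes, 0 were called in ROS++ against ROS+ and 1 was called lower in ROS+++ than in each other class. Of all genes, 40.0% were lower in ROS+++ than in ROS+ and 29.2% lower than in ROS++. With relative log expression factors, 0 peroxisomal genes were lower in ROS+++ than in ROS+ and 1 was lower than in ROS++, beside 25.9% and 17.1% of all genes. Hsd17b4 (ENSMUSG00000024507, chr18:50128201-50196269, plus strand), the bifunctional enzyme of very long and branched chains, had 179, 151, 167, 184 and 186 CPM in ROS+ libraries. Hsd17b4 stood at 220.3, 189, 161, 189 and 274 CPM in the ROS++ libraries, and at 131, 97.1, 110.0 and 114 CPM in the ROS+++ libraries. ROS+++ libraries lay below all libraries of the other classes, which overlapped each other. Hsd17b4 was lower in ROS+++ than in ROS++, with a difference of -0.85 ± 0.14 (adjusted p = 0.000155) in all 25 alternatives, and lower in ROS+++ than in ROS+, with a difference of -0.62 ± 0.14 (adjusted p = 0.00132), a call that ended with each other scaling (with relative log expression factors -0.18, adjusted p = 0.347). Acox3, an oxidase of branched chains, had means of 21.1 ± 4.29 (ROS+), 20.8 ± 4.68 (ROS++) and 22.3 ± 7.36 CPM (ROS+++), and Acaa1a, the peroxisomal thiolase, had means of 15.1 ± 4.95 (ROS+), 17.9 ± 7.87 (ROS++) and 14.7 ± 4.87 CPM (ROS+++). Neither was called in any comparison, and reads of Acaa1a are uncertain because its paralog Acaa1b is near-identical.

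Of the 3 regulators, Ppara and Ppard were called higher in ROS+++ than in ROS+, where 19.2% of all genes were higher, and Ppargc1a was not called. The F-test for any difference among the classes did not pass for Ppara (adjusted p = 0.0665). Ppard (ENSMUSG00000002250, chr17:28232700-28301474, plus strand), the nuclear receptor of fatty acids that is widely expressed in brain, had 2.41, 3.41, 2.45, 2.86 and 3.05 CPM in ROS+ libraries. Ppard stood at 5.55, 4.51, 6.14, 4.55 and 4.53 CPM in the ROS++ libraries, and at 12.4, 14.5, 13.5 and 11.2 CPM in the ROS+++ libraries. Levels were low, the classes did not overlap, and the ROS+++ libraries were highest. Ppard was higher in ROS+++ than in ROS+ by 1.86 ± 0.29 (adjusted p = 3.01e-05) and higher in ROS+++ than in ROS++ by 1.2 ± 0.29 (adjusted p = 0.00322), in all 25 alternatives. ROS++ minus ROS+ was 0.66 ± 0.27 (adjusted p = 0.081) and did not pass. Ppara (ENSMUSG00000022383, chr15:85734983-85802819, plus strand), the receptor best known for inducing fatty acid oxidation in liver, had 0, 0.240, 0, 2.00 and 0.375 CPM in ROS+ libraries. Ppara stood at 1.73, 0.483, 1.83, 1.18 and 7.04 CPM in the ROS++ libraries, and at 8.496, 2.94, 2.38 and 0.394 CPM in the ROS+++ libraries. In ROS+, 2 libraries had 0 reads, the classes overlapped, and replicate 4 of ROS+ and replicate 5 of ROS++ stood far above the rest of their classes. Ppara was called higher in ROS+++ than in ROS+, by 1.39 ± 0.54 (adjusted p = 0.0342), and the call ended with the replicate block and without ROS+ replicate 1, 2, 3 or 5 or ROS+++ replicate 1, 2 or 3, each left out alone (highest adjusted p = 0.144, without ROS+++ replicate 1). Ppargc1a (ENSMUSG00000029167, chr5:51454250-51567726, minus strand), the coactivator of mitochondrial gene programmes, had 25.1, 15.3, 23.4, 18.8 and 10.4 CPM in ROS+ libraries. Ppargc1a stood at 12.8, 26.2, 25.6, 13.8 and 17.0 CPM in the ROS++ libraries, and at 12.6, 10.2, 9.29 and 18.5 CPM in the ROS+++ libraries. The classes overlapped, and no comparison passed, with ROS+++ minus ROS+ at -0.51 ± 0.32 (adjusted p = 0.182). Mlycd, the decarboxylase that removes malonyl-CoA and so relieves the first transferase, had means of 7.37 ± 0.979 (ROS+), 11.2 ± 3.72 (ROS++) and 8.36 ± 2.90 CPM (ROS+++) and was not called.

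On levels per kb of exon, Ech1 ranked number 4 of the 40 in ROS+ at 58.7 ± 8.43 CPM per kb and first in both other classes, at 142 ± 35.6 in ROS++ and 268 ± 31.7 in ROS+++ (mean ± SD). Acat1 ranked first in ROS+ at 98.1 ± 9.36 CPM per kb, though Hsd17b10, second at 93.5 ± 4.94, lay within its spread. Acaa2 stood at 9.83 ± 2.56 CPM per kb in ROS+, 63.8 ± 19.3 in ROS++ and 178 ± 38.3 in ROS+++, where it was second only to Ech1. Ranks between genes depend on the annotated exon lengths.

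Genes around the pathway were looked at in 10 further groups with 142 genes, of which 114 were in the table and 113 were tested. Of the 113, 27 were higher and 5 lower in ROS++ than in ROS+, with a median difference of 0.24. Of all genes, 16.4% were higher and 13.2% lower there, with a median of -0.03. Against ROS+, ROS+++ had 30 higher and 34 lower (39 and 17 with relative log expression factors), with a median of -0.14. Shares of all genes were 19.2% and 40.0% (26.5% and 25.9%), with a median of -0.44. Against ROS++, 10 were higher and 32 lower (22 and 18), with a median of -0.35. That was close to all genes, at 9.89% and 29.2% (18.7% and 17.1%), with a median of -0.34. These shares of all genes belong beside the counts of each group that follows. Of 12 lipid droplet and lipolysis genes, 6 were higher and 0 lower in ROS++ against ROS+, 6 and 3 in ROS+++ against ROS+, and 4 and 2 in ROS+++ against ROS++. With relative log expression factors these were 7 and 0, 7 and 1, and 6 and 2. Plin2, which coats lipid droplets, had means of 66.4 ± 5.93 (ROS+), 252 ± 20.9 (ROS++) and 450.0 ± 68.6 CPM (ROS+++). Plin2 was higher in ROS++ than in ROS+ by 1.91 ± 0.12 (adjusted p = 2e-09), in ROS+++ than in ROS+ by 2.73 ± 0.12 (adjusted p = 1.15e-11) and in ROS+++ than in ROS++ by 0.82 ± 0.12 (adjusted p = 4.89e-05). Plin3, another coat protein, had means of 5.21 ± 2.40 (ROS+), 41.7 ± 16.3 (ROS++) and 76.5 ± 20.6 CPM (ROS+++). Plin3 was higher in ROS++ than in ROS+ by 2.74 ± 0.34 (adjusted p = 8.1e-06).

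Fatty acid uptake and binding genes numbered 15, with 3 higher and 3 lower in ROS++ against ROS+, 3 and 9 in ROS+++ against ROS+, and 1 and 10 in ROS+++ against ROS++. With relative log expression factors the counts were 3 and 3, 4 and 7, and 2 and 6. Cd36, a fatty acid uptake receptor that macrophages and vascular cells also carry, had means of 0.0442 ± 0.0456 (ROS+), 72.4 ± 26.4 (ROS++) and 49.5 ± 23.0 CPM (ROS+++). Cd36 was higher in ROS++ than in ROS+ by 6.04 ± 0.38 (adjusted p = 2.43e-09), a size that depends on the pseudocount since the ROS+ mean is below the limit of 3 reads. Fabp7, the fatty acid binding protein of radial glia, had means of 516 ± 89.5 (ROS+), 864 ± 162 (ROS++) and 266 ± 93.6 CPM (ROS+++). Fabp7 was lower in ROS+++ than in ROS++, with a difference of -1.74 ± 0.20 (adjusted p = 4.1e-06). Of 18 regulators and targets of the PPAR factors, 3 were higher and 1 lower in ROS++ against ROS+, 4 and 6 in ROS+++ against ROS+, and 1 and 4 in ROS+++ against ROS++. The balance in ROS+++ turned with relative log expression factors, which gave 3 and 1, 5 and 2, and 4 and 3. All genes shifted likewise with these factors. In ROS+++ against ROS+ their shares went from 19.2% higher and 40.0% lower to 26.5% and 25.9%. Against ROS++ they went from 9.89% and 29.2% to 18.7% and 17.1%. Ucp2, a mitochondrial carrier, had means of 13.5 ± 2.88 (ROS+), 83.8 ± 32.4 (ROS++) and 118 ± 16.6 CPM (ROS+++). Ucp2 was higher in ROS+++ than in ROS+ by 3.05 ± 0.28 (adjusted p = 5.75e-08). The retinoid receptor gene Rxrg had means of 23.9 ± 7.14 (ROS+), 18.8 ± 11.0 (ROS++) and 0.115 ± 0.121 CPM (ROS+++). Rxrg was lower in ROS+++ than in ROS+, with a difference of -4.44 ± 0.44 (adjusted p = 1.62e-07) whose size depends on the pseudocount in the same way.

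Of 10 genes of malonyl-CoA synthesis and AMP-activated kinase, 1 was higher and 0 lower in ROS++ against ROS+, 3 and 4 in ROS+++ against ROS+, and 1 and 1 in ROS+++ against ROS++. Relative log expression factors gave 1 and 0, 3 and 3, and 3 and 1. Acaca, the carboxylase that makes malonyl-CoA for lipid synthesis, had means of 43.8 ± 5.19 (ROS+), 32.98 ± 2.54 (ROS++) and 9.76 ± 3.56 CPM (ROS+++). Acaca was lower in ROS+++ than in ROS+, with a difference of -2.11 ± 0.23 (adjusted p = 5.54e-07) and lower in ROS+++ than in ROS++, with a difference of -1.72 ± 0.23 (adjusted p = 1.96e-05). Of 19 further peroxisomal genes, 3 were higher and 1 lower in ROS++ against ROS+, 3 and 5 in ROS+++ against ROS+, and 0 and 3 in ROS+++ against ROS++. Here too the balance in ROS+++ turned with relative log expression factors, which gave 3 and 1, 5 and 1, and 3 and 2. The turn stood beside the same shift over all genes. The 14 other mitochondrial oxidation enzymes gave 4 higher and 0 lower, 4 and 2, and 0 and 3 in these comparisons (with relative log expression factors 4 and 0, 7 and 1, and 1 and 1). The 11 thioesterases gave 2 and 0, 3 and 3, and 2 and 4 (with those factors 2 and 0, 4 and 1, and 2 and 1). The 5 ketone body genes gave 2 and 0, 2 and 1, and 1 and 3 (with those factors 2 and 0, 2 and 1, and 1 and 1). The 5 other carnitine genes gave 1 and 0, 1 and 0, and 0 and 0 with either scaling. The 4 other acyl-CoA synthetases gave 2 and 0, 1 and 1, and 0 and 2 (with those factors 2 and 0, 1 and 0, and 0 and 1).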

How the data were processed

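Poly-dT primed, amplified cDNA of 14 libraries of sorted cells was sequenced without strand or molecular identifiers. STAR, edgeR and the build mm10 are named in the submitters' processing notes; versions, counter and annotation are, in these sources, not given. The authors deposited 1 table of log2 CPM, reads scaled to the library size, for 15119 genes. From it, whole reads were recovered for all values (largest deviation under 0.001 reads) and CPM was computed on the total of each library; precision per library follows these totals. Symbols were matched by ID in GENCODE M21 on the same build (15060 matched, 59 did not), which gave positions and exon lengths. The exon length of a gene is the union of all its annotated exons. Levels, shares and ratios per kb between genes therefore depend on the annotation. Genes with at least 1 CPM in at least 4 libraries were tested (15102; 17 were removed) with limma 3.58.1 (trend, robust, statmod 1.5.0, R 4.3.3) on log2(CPM + 1) with 1 mean per class and 11 residual degrees of freedom. The pseudocount understates differences of low genes. P-values were adjusted by Benjamini-Hochberg over all genes, and an adjusted p under 0.05 was a call.

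Libraries were grouped by the sample titles, and replicate numbers follow accession order. The test was checked on simulated data with the same dispersion for every gene and changes in ROS++ only. That check does not bear on the scaling between classes. All 40 genes are named; every library is given for called genes among the 12 smallest F-test p and for Cpt1a, Cpt1c, Ppara, Ppargc1a and Acsbg1, and of each wider group at most the 2 called genes with the smallest adjusted p per comparison were eligible. Members and lists were chosen with earlier results of these data known. Alternatives were 3 scalings, pseudocount 0.25, the deposited log2 values, filters, limma-voom, no robust moderation, a replicate block by library-number set, a fit of 2 classes and each library left out. A count model was planned just for a table of raw counts and was not run on the recovered reads. Limma-voom was run on those reads.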

Additional observations from a re-analysis of the deposited data

Results flagged for a closer look

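Dixon's test at the 95% level was run on the CPM of each of the 40 genes in each class, 120 groups in all, of which chance flags about 1 in 20; 5 were flagged because 1 library stood far from the others of its class. Acad10 was 10.7 CPM in ROS+++ replicate 4, above 4.71 to 5.45 CPM in the other ROS+++ libraries. Acadsb was 132 CPM in ROS+++ replicate 3, below 167 to 174 CPM in the others. Hadhb was 102 CPM in ROS+ replicate 5, below 129 to 138 CPM in the others. Ppara was 2.00 CPM in ROS+ replicate 4, above 0 to 0.375 CPM in the others, and 7.04 CPM in ROS++ replicate 5, above 0.483 to 1.83 CPM in the others. The cause of these values was not tested.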

How the results depend on the processing

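Of 49 called differences among the 40 genes, all 49 kept call and direction with pseudocount 0.25, the deposited log2 values, no filter, no robust moderation and limma-voom, 48 of 48 with the 5 CPM filter (which removed Ppara), 46 in the fit of 2 classes, 44 with TMM or upper-quartile scaling, 43 with relative log expression factors and 42 to 48 without 1 library. In ROS++ against ROS+, the count lower was 0 with all libraries, 1 in limma-voom, 1 under the replicate block and 0 to 1 without 1 library. In ROS+++ against ROS+, the count lower was 1 with TMM, relative log expression and upper-quartile scaling. In ROS+++ against ROS++, the count higher was 13 with TMM, 13 with relative log expression factors and 4 in the fit of 2 classes, and the count lower was 2 with relative log expression factors. Among differences called with either scaling, Hadha (0.027) and Echs1 (0.36) reversed in ROS+++ against ROS+ with relative log expression factors. The cause was not tested, beyond the shift of the median of all genes by scaling. Library-number sets correlated within sets at -0.02 to 0.23 and between sets at -0.15 to 0.16. The numbers were not taken as pairs in the main fit, because the labels name no pairing. The medians were 0.08 within sets and -0.01 between them, and 10 of 14 libraries matched best with their own set, a hint from the data of something shared that the labels do not state. The replicate block kept 47 calls and gained 5, Cpt1c in ROS++ against ROS+ (adjusted p = 0.0325), Acat1 (0.0347) and Eci2 (0.0268) in ROS+++ against ROS+, and Etfa (0.0439) and Acsl4 (0.0331) in ROS+++ against ROS++. Depth limits Ppara most, at 0 reads in 2 libraries.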
